A study of Homo sapiens with 12 samples.

Results

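Heat shock proteins and the molecular chaperones that work with them are described here by 37 genes, of the 57773 gene identifiers in the deposited table. The genes were listed by name from chaperone families, with earlier results of these data known. Each was read from 1 row of the table by its Ensembl identifier on the primary assembly. They comprise 7 genes of the HSP70 family and its exchange factors, 2 of HSP90, 5 HSP90 co-chaperones, 6 J-domain proteins, 8 subunits of the chaperonin CCT, 4 genes of small heat shock proteins and BAG3, and 2 heat shock factors. A further 3, HSPA9, HSPD1 and HSPE1, encode chaperones of the mitochondrial matrix rather than of the cytosol.

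RPE1 is an immortalised, near-diploid human cell line derived from retinal pigment epithelium. Cells received siRNA against Anillin (ANLN), a scaffold protein of the contractile ring that divides a cell, or a non-targeting siRNA, by lipid transfection for 24 h. After staining of DNA in living cells with Hoechst 33342 (2 µg/mL for 60 min at 37 °C), they were sorted by DNA content. The 4 groups are Anillin 4N, control 4N, Anillin 2N and control 2N, with 3 RNA-seq libraries each and 12 in all. The labels give no genetic difference between the groups, and all 4 were transfected, stained and sorted, so an unhandled culture is not among them. The series title gives cytokinesis failure and polyploidy as the aim of the knockdown. Libraries within a group are labelled as biological replicates, but separate cultures are not stated, so p-values reflect the spread among these samples alone, which may be technical.

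Chaperones bind unfolded or partly folded proteins and release them as ATP is hydrolysed. HSP70 takes clients from J-domain proteins and passes some of them, through the adaptor STIP1, to HSP90, while CCT encloses clients such as actin and tubulin in a ring. Heat shock factor 1 (HSF1) switches on many of these genes by binding repeats of GAA and TTC in their promoters when proteins misfold, and many of them are also made in growing, unstressed cells.

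Promoter sequences are shown for genes whose levels differed in direction or size between the groups, to set genes with heat shock units beside genes that have none in the window. Each line gives the 120 bases before the start of transcription in the direction of the gene, from RefSeq on GRCh38.p14, and capitals mark GAA and TTC units that face each other across 2 bases.
HSPA8: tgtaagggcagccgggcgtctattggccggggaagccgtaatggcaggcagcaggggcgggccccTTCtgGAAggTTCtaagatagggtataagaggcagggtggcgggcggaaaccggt
HSPA1A: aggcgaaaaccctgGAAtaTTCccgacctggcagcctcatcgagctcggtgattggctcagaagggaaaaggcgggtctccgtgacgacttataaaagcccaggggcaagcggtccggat
HSPA1B: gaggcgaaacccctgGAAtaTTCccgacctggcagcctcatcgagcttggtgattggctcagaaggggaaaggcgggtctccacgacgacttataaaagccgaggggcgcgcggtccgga
HSP90AA1: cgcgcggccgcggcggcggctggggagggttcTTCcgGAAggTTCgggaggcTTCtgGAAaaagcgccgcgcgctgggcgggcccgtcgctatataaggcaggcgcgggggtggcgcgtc
DNAJB1: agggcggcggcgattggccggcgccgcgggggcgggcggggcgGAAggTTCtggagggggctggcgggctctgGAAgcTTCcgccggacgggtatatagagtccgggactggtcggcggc
CHORDC1: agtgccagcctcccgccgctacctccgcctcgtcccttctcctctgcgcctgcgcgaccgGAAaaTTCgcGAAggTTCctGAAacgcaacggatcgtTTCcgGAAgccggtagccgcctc
PTGES3: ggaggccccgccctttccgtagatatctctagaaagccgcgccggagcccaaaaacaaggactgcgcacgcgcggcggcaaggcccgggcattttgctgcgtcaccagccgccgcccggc
CCT5: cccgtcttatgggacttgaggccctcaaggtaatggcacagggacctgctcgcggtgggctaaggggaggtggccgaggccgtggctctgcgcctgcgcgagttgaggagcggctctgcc
These stretches lie at chr11:123062137-123062256 (minus strand) for HSPA8, chr6:31815423-31815542 (plus) for HSPA1A and chr6:31827618-31827737 (plus) for HSPA1B. They lie at chr14:102087045-102087164 (minus) for HSP90AA1, chr19:14518398-14518517 (minus) for DNAJB1 and chr11:90223050-90223169 (minus) for CHORDC1. Those of PTGES3 and CCT5 are chr12:56688285-56688404 (minus) and chr5:10250417-10250536 (plus). Where RefSeq gives several starts, the line shows the start with TATAA close by for HSP90AA1 and the start with a paired unit for DNAJB1.

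Paired units were searched as GAANNTTC and TTCNNGAA, which read the same on both strands, in the 250 bases before the start. HSPA8 has its first shown pair at -55, HSP90AA1 at -88, DNAJB1 at -77, HSPA1A at -106, HSPA1B at -105 and CHORDC1 at -60, counted back from the start. In the stretches shown, CHORDC1 has 5 pairs, HSP90AA1 has 3 and HSPA8 and DNAJB1 have 2 each, some of them sharing a unit. The windows of PTGES3 and CCT5 hold none. Of the 32 listed genes with a RefSeq window, 16 had at least 1 pair, against 14.0% of all 27305 genes in the table. A pair extended by another unit after 2 more bases was found in 6 of the 32 genes and in 0.557% of all genes, and 3-unit matches overlap the pairs. CCAAT, a common promoter element searched on both strands, was found in 12 of the 32 genes and in 37.0% of all genes. The 250 bases of HSPA1A and HSPA1B match at 94.4% of 249 aligned positions.

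The deposited values are RPKM, reads scaled to gene length and library size, in which the length matched the annotated genomic span, introns included, for 28 of the 37 genes. The other 9, among them HSP90AB1, HSPH1, HSPA9 and PTGES3, had another length. The depth was between 17412742 and 61760450 reads per library. ANLN lay between 0.0700 and 0.0989 RPKM in Anillin 4N and between 7.45 and 8.42 in control 4N, and between 0.0395 and 0.0850 in Anillin 2N and 1.25 and 1.88 in control 2N. Of 12 markers of retinal pigment epithelium, 9 had a mean under 0.5 RPKM and TTR was listed at 0. A length that includes introns places long genes low, so a value under 0.5 RPKM need not mean absence. The epithelial keratin genes KRT18 and KRT8 averaged 109.1 and 8.53 RPKM, and OTX2 averaged 3.76 RPKM. Among markers of blood cells, CD3E and HBB were at 0, PTPRC and LYZ reached at most 0.190 RPKM, and CD68, a lysosomal protein, averaged 15.1 RPKM. CD68 was lower with Anillin siRNA at 4N (-0.27) and at 2N (-0.34), and its part in the results was not tested. The 6 markers of muscle and nerve summed to at most 0.187 RPKM.

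Cell cycle genes differed between the groups, and their calls are set here beside those of the chaperone genes. Between Anillin 4N and Anillin 2N all 10 G2/M genes were higher, where 1 of the 37 chaperone genes was called. Of all genes tested, 2.61% were higher and 0.97% lower there, so the 1 call is near the share over all genes. Between Anillin 4N and control 2N the G2/M genes had a median change of 0.03, where 17 of the 37 chaperone genes and 15.8% of all genes were lower. Of 9 G1/S genes tested, 7 were lower and 0 higher in that comparison, with a median of -0.97. Between Anillin 4N and Anillin 2N, 2 of the G1/S genes were higher and 1 lower, with a median of -0.13. The summed level of 10 G2/M genes was 36.4 to 39.5 RPKM in Anillin 4N and 246 to 282 RPKM in control 4N. The 2N fractions had 11.2 to 12.0 RPKM with Anillin siRNA and 29.1 to 43.5 RPKM with control siRNA. The sum of 10 G1/S genes was 20.4 to 22.8 RPKM in Anillin 4N, 60.4 to 75.3 in control 4N, 15.5 to 16.2 in Anillin 2N and 27.2 to 41.7 in control 2N. The part of cell cycle position in the chaperone differences was not tested, and within a DNA content it cannot be told apart from the siRNA. In bulk libraries, fewer cells of a kind and less RNA per cell cannot be told apart.

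The chaperone genes were highest together in the control 4N cells and low in both Anillin fractions. Reads in the 37 genes made up 0.770%, 0.795% and 0.780% of all reads in the Anillin 4N libraries, against 1.08%, 1.01% and 1.04% in control 4N. The share was 0.762%, 0.757% and 0.739% in Anillin 2N, against 0.887%, 0.804% and 0.914% in control 2N. Within each DNA content the Anillin libraries all lay below the control libraries, by a wide margin at 4N and, at 2N, with control 2N replicate 2 closest to them. That library was the lowest of its group for 30 of the 37 genes, and the matching share over all genes was not computed. Control 2N replicate 2 also had the lowest G2/M sum of its group, 29.1 RPKM, against 43.5 and 38.0 RPKM in replicates 1 and 3.

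**Figure D1:**
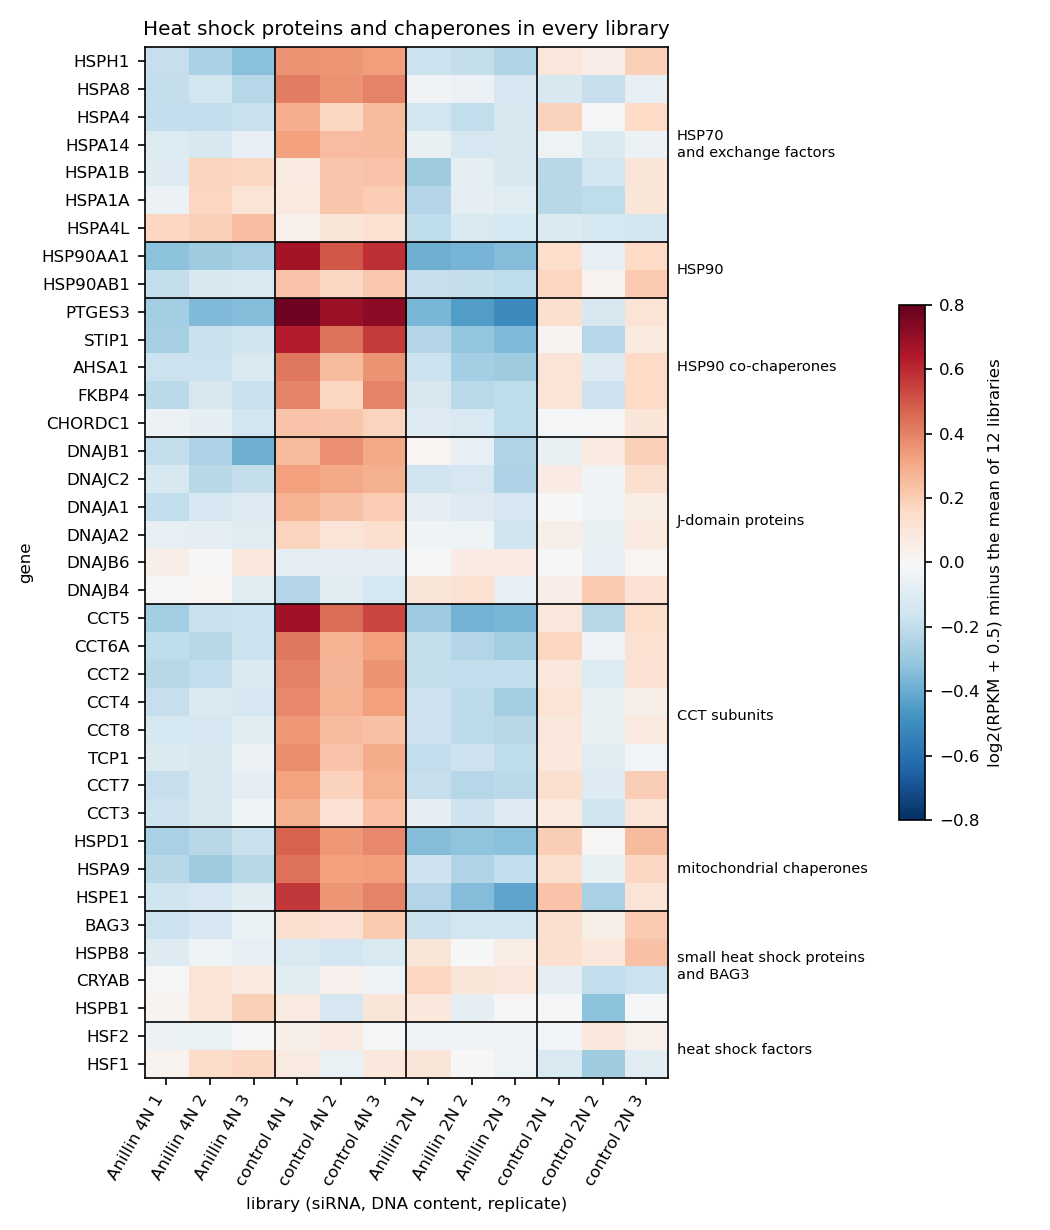
Level of each of the 37 genes (rows, grouped by family) in each of the 12 libraries (columns), as log2(RPKM + 0.5) minus the mean of that gene over the 12 libraries, red above and blue below. Most rows are red in the 3 control 4N columns and blue in the 6 Anillin columns. The rows of HSPA1A, HSPA1B, HSPA4L, DNAJB6, HSPB1, CRYAB and HSF1 do not show this pattern, and those of DNAJB4 and HSPB8 are lowest in control 4N.

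In Anillin 4N against control 4N cells, 27 of the 37 genes were lower and 2 higher, and 8 were not called. Calls are by limma-trend, a moderated linear model on log2(RPKM + 0.5), at a Benjamini-Hochberg adjusted p under 0.05 over 12892 genes with at least 0.5 RPKM in at least 3 libraries. Of all genes tested, 31.5% were lower and 20% higher in this comparison. The median log2 change was -0.40 for the 37 genes and -0.05 for all genes. Both HSP90 genes, all 5 HSP90 co-chaperones, all 8 CCT subunits and all 3 mitochondrial chaperones were lower, as were 4 of 7 in the HSP70 group and 4 of 6 J-domain proteins. Neither heat shock factor was called. The 3 Anillin libraries lay below the 3 control libraries without overlap for 27 of the 37 genes and above them for 3, against 36.3% and 24.1% of all genes tested.

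All 37 genes passed the filter on low values. HSPA4L passed through 4 libraries alone, those of Anillin 4N and a single control 4N library. Its calls with either 4N group, control 4N against control 2N included, therefore rest on a filter passed where it was high. The same 27 genes were called lower under all 12 alternatives tried in this comparison. Where library values were scaled to equal quantiles, the calls over all genes were 27.2% higher and 24.7% lower, while 27 of the 37 stayed lower with a median of -0.28. Under that scaling the changes were clearly smaller for DNAJA2 (-0.12), BAG3 (-0.15), CCT3 (-0.21), CCT7 (-0.22), DNAJA1 (-0.23), TCP1 (-0.24), CCT8 (-0.25) and CCT4 (-0.31). With limma-voom on reads recovered from the RPKM values, the 22404 genes tested had 21.3% higher and 23.4% lower calls, and the 37 counted 2 higher and 27 lower.

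**Figure D2:**
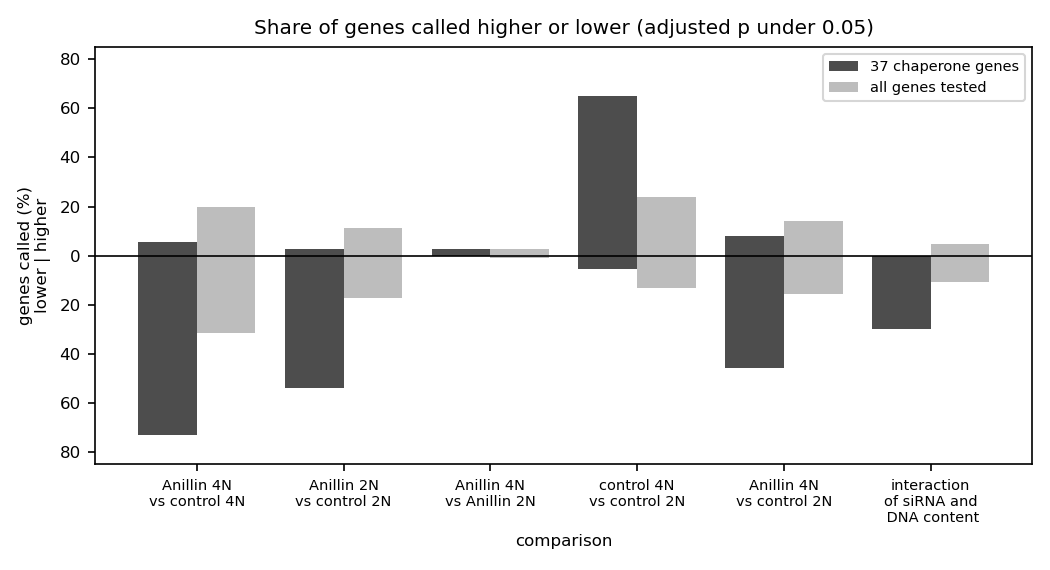
Share of genes called higher (above 0) or lower (below 0) in each comparison, for the 37 chaperone genes (dark bars) and for all 12892 genes tested (light bars), in percent. The dark bar reaches far beyond the light one for lower calls in Anillin 4N against control 4N (27 of 37 against 31.5%) and for higher calls in control 4N against control 2N (24 of 37 against 23.9%).

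HSP70 chaperones were divided: the constitutive gene was lower in Anillin 4N cells, and the stress-inducible pair showed no called difference. HSPA8, the HSP70 that cells make at all times, stood at 183, 188 and 178 RPKM in the Anillin 4N libraries, against 277, 267 and 275 RPKM in control 4N. In the 2N fractions it was 204, 202 and 190 RPKM in Anillin 2N, against 191, 183 and 199 RPKM in control 2N. Control 4N thus stood alone above the other 9 libraries, which overlapped between siRNAs at 2N. The log2 change was -0.58 ± 0.04 (SE) at 4N (limma-trend adjusted p = 2.48e-06) and 0.06 ± 0.04 at 2N (adjusted p = 0.341), and the difference between these changes was -0.63 ± 0.06 (adjusted p = 1.07e-04). The span of HSPA8 also holds small nucleolar RNA genes on its strand, SNORD14C, SNORD14D and SNORD14E, whose reads could be counted with it.

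HSPA1A and HSPA1B, the near-identical inducible HSP70 genes of chromosome 6, share 71.3% and 73.5% of their 50-base words with other genes, mainly each other, so the split of reads between them is uncertain. HSPA1A stood at 66.5, 77.3 and 74.1 RPKM in Anillin 4N, against 72.4, 80.0 and 79.1 RPKM in control 4N. Among 2N cells HSPA1A was 58.2, 64.9 and 64.2 RPKM in Anillin 2N, against 58.8, 59.5 and 73.6 RPKM in control 2N. The siRNA groups overlapped at both DNA contents. HSPA1B was 67.9, 82.9 and 82.2 RPKM in Anillin 4N, against 76.9, 85.2 and 85.6 RPKM in control 4N, and 59.9, 69.6 and 66.8 RPKM in Anillin 2N, against 62.7, 65.7 and 78.3 RPKM in control 2N. Its groups overlapped likewise. At 4N the changes were -0.09 ± 0.09 for HSPA1A (limma-trend adjusted p = 0.462) and -0.09 ± 0.10 for HSPA1B (adjusted p = 0.492), and both were slightly above 0 with quantile scaling (0.02 and 0.01). Both genes were well detected, at 58.2 RPKM or more in every library.

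HSPH1, an HSP110 protein that swaps the nucleotide on HSP70, was 5.37, 5.09 and 4.80 RPKM in Anillin 4N, against 8.09, 8.02 and 7.91 RPKM in control 4N. At 2N it was 5.44, 5.35 and 5.15 RPKM in Anillin 2N, against 6.60, 6.43 and 7.12 RPKM in control 2N. All 6 Anillin libraries lay below all 6 control libraries. The changes were -0.61 ± 0.05 at 4N (limma-trend adjusted p = 4.79e-06) and -0.31 ± 0.05 at 2N (adjusted p = 0.00117). HSPA14, an HSP70-like protein that sits on ribosomes, shares its symbol and strand with an overlapping gene record that holds 15.9% of its 50-base words, so its reads are uncertain. Its row stood at 0.915, 0.894 and 0.960 RPKM in Anillin 4N, against 1.42, 1.31 and 1.32 RPKM in control 4N. At 2N it was 0.966, 0.892 and 0.898 RPKM in Anillin 2N, against 0.984, 0.909 and 0.977 RPKM in control 2N. As with HSPA8, the siRNA groups were apart at 4N (-0.38 ± 0.04, limma-trend adjusted p = 2.10e-05) and overlapped at 2N (-0.04 ± 0.04, adjusted p = 0.488). HSPA4, an HSP110 exchange factor, was lower by 0.43 ± 0.05 at 4N and by 0.27 ± 0.05 at 2N on the log2 scale. Its relative HSPA4L ran the other way at 4N, with 0.554, 0.568 and 0.609 RPKM in Anillin 4N and 0.463, 0.499 and 0.519 RPKM in control 4N. The change of 0.12 ± 0.04 (0.23 on recovered reads, limma-trend adjusted p = 0.0342) was lost without Anillin 4N replicate 2 (adjusted p = 0.0582) or 3 (0.114), without control 4N replicate 1 (0.135) or 2 (0.0731), at a pseudocount of 0.1 (0.0521) and in a fit of the 4N groups alone (0.0745).

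**Figure D3:**
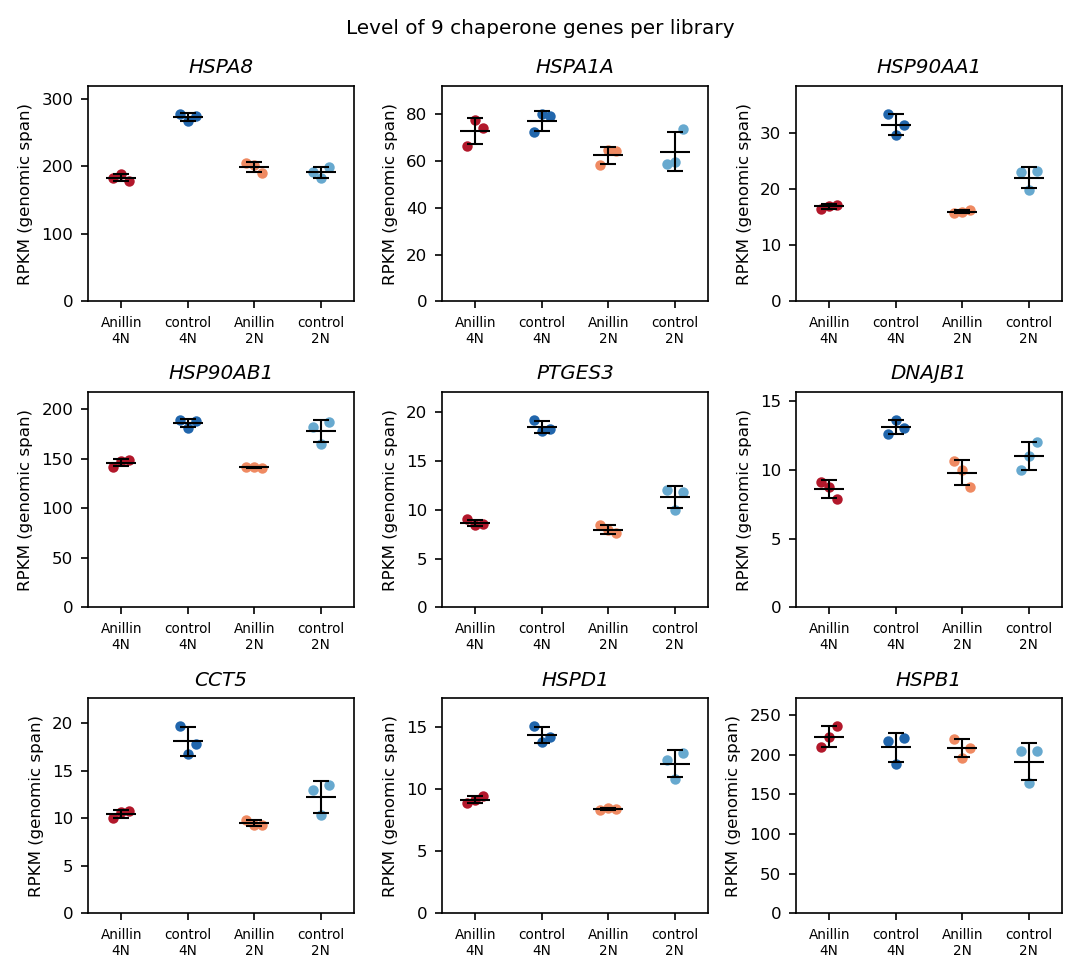
RPKM of 9 chaperone genes in every library (points), with group mean and SD (lines, n = 3 each), each panel starting at 0. Control 4N stands above the other groups for HSPA8, HSP90AA1, PTGES3 and CCT5, while for HSPA1A and HSPB1 the siRNA groups overlap at each DNA content.

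HSP90, which completes the folding of kinases and steroid receptors, was lower in both Anillin fractions, and the inducible gene fell further than the constitutive one at 4N. HSP90AA1, the inducible form, was 16.5, 17.0 and 17.2 RPKM in Anillin 4N, against 33.4, 29.6 and 31.5 RPKM in control 4N. In the 2N fractions it was 15.8, 16.0 and 16.3 RPKM in Anillin 2N, against 23.0, 19.8 and 23.3 RPKM in control 2N. Every Anillin library lay below every control library, and the Anillin 4N mean was 53.7% of that of control 4N. The log2 change was -0.88 ± 0.06 at 4N (limma-trend adjusted p = 2.96e-06) and -0.45 ± 0.06 at 2N (adjusted p = 8.70e-04).

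HSP90AB1, the constitutive form, was 142, 148 and 149 RPKM in Anillin 4N, against 189, 181 and 188 RPKM in control 4N. At 2N it was 142, 141 and 141 RPKM in Anillin 2N, against 182, 165 and 187 RPKM in control 2N. The siRNA groups were apart at both DNA contents and the changes were of like size, -0.35 ± 0.05 at 4N (limma-trend adjusted p = 1.41e-04) and -0.33 ± 0.05 at 2N (adjusted p = 7.05e-04). The difference between them was -0.02 ± 0.06 (adjusted p = 0.884). HSP90AB1 and HSP90AA1 share 16.6% and 11.3% of their 50-base words with other genes, most of them pseudogenes.

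The ratio of HSP90AA1 to HSP90AB1 in RPKM was 0.116, 0.115 and 0.116 in Anillin 4N, against 0.176, 0.163 and 0.168 in control 4N. The 2N libraries gave 0.111, 0.113 and 0.116 with Anillin siRNA, against 0.126, 0.120 and 0.125 with control siRNA. The size of this ratio rests on the lengths behind the RPKM, 58962 bases for HSP90AA1 and 6797 for HSP90AB1. It is therefore read between libraries and not as relative abundance. Within a library this ratio does not depend on scaling between libraries, and control 4N lay above all other libraries. The log2 ratio differed by -0.55 between Anillin 4N and control 4N and by -0.13 between Anillin 2N and control 2N. Each of these has a two-sided exact permutation p of 0.1, the smallest that 3 against 3 libraries allow. The summed level of HSPA1A and HSPA1B relative to HSPA8 was 0.736, 0.851 and 0.880 in Anillin 4N, against 0.538, 0.618 and 0.600 in control 4N, a log2 difference of 0.49 (exact permutation p = 0.1). At 2N the 3 values were 0.578, 0.667 and 0.688 in Anillin 2N, against 0.635, 0.683 and 0.763 in control 2N, and overlapped (exact permutation p = 0.5).

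**Figure D4:**
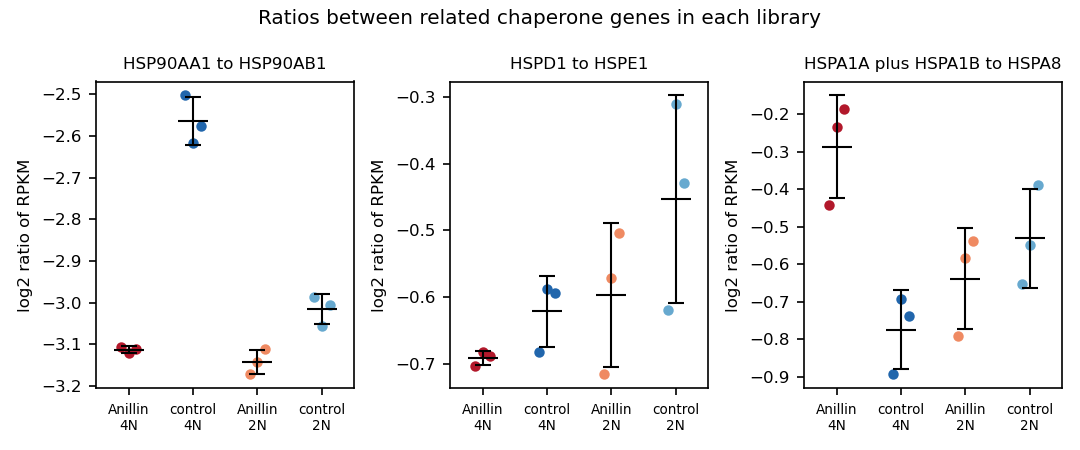
Log2 ratio of RPKM within each library (points) for HSP90AA1 to HSP90AB1, HSPD1 to HSPE1, and HSPA1A plus HSPA1B to HSPA8, with group mean and SD (n = 3 each). In the left panel control 4N stands above all other libraries, and in the right panel Anillin 4N stands above control 4N.

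HSP90 co-chaperones were lower in Anillin 4N cells in all 5 cases, with the largest change of all 37 genes in PTGES3. PTGES3, also called p23, holds HSP90 in its client-bound state. It was 9.01, 8.46 and 8.52 RPKM in Anillin 4N, against 19.2, 18.0 and 18.3 RPKM in control 4N. Among 2N cells PTGES3 was 8.40, 7.93 and 7.57 RPKM in Anillin 2N, against 12.0, 9.97 and 11.9 RPKM in control 2N. All 6 Anillin libraries lay below all 6 control libraries, and the Anillin 4N mean was 46.8% of control 4N. The changes were -1.05 ± 0.07 at 4N (limma-trend adjusted p = 1.49e-06) and -0.47 ± 0.07 at 2N (adjusted p = 9.47e-04).

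STIP1, which bridges HSP70 and HSP90, was 5.84, 6.24 and 6.32 RPKM in Anillin 4N, against 11.3, 9.80 and 10.7 RPKM in control 4N. At 2N it was 5.96, 5.64 and 5.45 RPKM in Anillin 2N, against 7.23, 5.99 and 7.55 RPKM in control 2N. The siRNA groups were far apart at 4N, and at 2N the gap to control 2N replicate 2 was small. The changes were -0.74 ± 0.08 at 4N (limma-trend adjusted p = 4.24e-05) and -0.26 ± 0.08 at 2N (adjusted p = 0.0385). AHSA1, an activator of the HSP90 ATPase, FKBP4, a prolyl isomerase of steroid receptor complexes, and CHORDC1, an HSP90-binding zinc protein, were also lower at 4N, by 0.50 ± 0.07, 0.49 ± 0.09 and 0.30 ± 0.04 on the log2 scale. CHORDC1, the gene with 5 paired heat shock units in the stretch shown above, changed less than PTGES3, whose window has none. HSP90AA1, with 3 pairs, changed by -0.88, and CCT5, with none, by -0.76. The pseudocount shrinks the change of CHORDC1, whose Anillin 4N mean was 75.1% of control 4N. Whether these units go with the change was not tested.

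J-domain proteins, which deliver clients to HSP70 and trigger its ATPase, were lower in 4 of 6 cases at 4N and higher in DNAJB6. DNAJB1, the main heat-inducible one, was 9.14, 8.74 and 7.86 RPKM in Anillin 4N, against 12.6, 13.6 and 13.1 RPKM in control 4N. Among 2N cells it was 10.6, 9.99 and 8.78 RPKM in Anillin 2N, against 10.0, 11.0 and 12.0 RPKM in control 2N. The groups were apart at 4N (-0.58 ± 0.08, limma-trend adjusted p = 2.76e-04) and overlapped at 2N (-0.16 ± 0.08, adjusted p = 0.187). The span of DNAJB1 overlaps TECR on the other strand, and whether counting used strand is not given in the sources used here.

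DNAJA1, a farnesylated partner of HSPA8, was 13.5, 14.1 and 14.5 RPKM in Anillin 4N, against 19.0, 18.4 and 18.0 RPKM in control 4N. In the 2N fractions the level was 14.8, 14.5 and 14.2 RPKM in Anillin 2N, against 15.5, 15.3 and 16.2 RPKM in control 2N. The groups did not overlap at either DNA content, but the narrow gap at 2N did not pass the test (-0.11 ± 0.04, limma-trend adjusted p = 0.0621), against -0.38 ± 0.04 at 4N (adjusted p = 2.77e-05). DNAJC2, the J-domain partner of HSPA14 on ribosomes, was 0.582, 0.513 and 0.538 RPKM in Anillin 4N, against 0.981, 0.962 and 0.942 RPKM in control 4N. Among the 2N libraries DNAJC2 was 0.559, 0.577 and 0.495 RPKM in Anillin 2N, against 0.738, 0.658 and 0.791 RPKM in control 2N. All 6 Anillin libraries lay below all 6 control libraries (-0.48 ± 0.05 at 4N and -0.24 ± 0.05 at 2N). At this low level the pseudocount shrinks the change, which was -0.81 at 4N on recovered reads.

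The other J-domain genes changed little. DNAJA2, a relative of DNAJA1, was lower by 0.22 ± 0.05 at 4N. DNAJB6, which keeps aggregation-prone proteins soluble, was 2.33, 2.23 and 2.40 RPKM in Anillin 4N and 2.08 RPKM in each control 4N library, a change of 0.12 ± 0.03 (limma-trend adjusted p = 0.00986). DNAJB4, a relative of DNAJB1, was not called at 4N (0.13 ± 0.06, adjusted p = 0.121).

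CCT subunits, 8 different proteins that form the double ring of the cytosolic chaperonin, were lower together in Anillin 4N cells. Their changes ran between -0.76 for CCT5 and -0.32 for CCT3. CCT5 was 9.98, 10.7 and 10.7 RPKM in Anillin 4N, against 19.7, 16.7 and 17.8 RPKM in control 4N. The 2N libraries had 9.86, 9.25 and 9.33 RPKM in Anillin 2N, against 13.0, 10.3 and 13.5 RPKM in control 2N. The groups were apart at both DNA contents, with Anillin 4N at 57.9% of control 4N. The change was -0.76 ± 0.09 at 4N (limma-trend adjusted p = 8.96e-05) and -0.35 ± 0.09 at 2N (adjusted p = 0.0199).

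CCT6A was 17.0, 16.7 and 17.4 RPKM in Anillin 4N, against 26.5, 23.9 and 24.8 RPKM in control 4N, and 17.2, 16.6 and 16.1 RPKM in Anillin 2N, against 22.2, 19.3 and 21.4 RPKM in control 2N. CCT2 was 11.9, 12.2 and 12.9 RPKM in Anillin 4N, against 18.7, 17.0 and 18.1 RPKM in control 4N, and 12.2, 12.1 and 12.1 RPKM in Anillin 2N, against 14.9, 12.9 and 15.2 RPKM in control 2N. For both subunits the Anillin libraries lay below the controls without overlap at each DNA content. TCP1, the founding subunit, was 15.8, 15.7 and 16.7 RPKM in Anillin 4N, against 22.4, 20.2 and 21.3 RPKM in control 4N, and 14.9, 15.3 and 14.9 RPKM in Anillin 2N, against 18.3, 16.1 and 16.9 RPKM in control 2N. Its changes were -0.40 ± 0.05 at 4N (limma-trend adjusted p = 1.74e-04) and -0.18 ± 0.05 at 2N (adjusted p = 0.0331). The span of TCP1 overlaps ACAT2 on the other strand and holds SNORA20 and SNORA29. CCT4, CCT7 and CCT8 were lower at 4N by 0.47 ± 0.05, 0.39 ± 0.07 and 0.40 ± 0.05 on the log2 scale.

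Mitochondrial chaperones were lower at both DNA contents in all 3 genes. HSPD1 and HSPE1 encode the chaperonin HSP60 and its lid HSP10 and lie head to head on chromosome 2, where their annotated spans overlap. HSPD1 was 8.86, 9.14 and 9.43 RPKM in Anillin 4N, against 15.0, 13.8 and 14.2 RPKM in control 4N, and 8.32, 8.48 and 8.40 RPKM in Anillin 2N, against 12.4, 10.8 and 12.9 RPKM in control 2N. No Anillin library reached a control library. The changes were -0.62 ± 0.06 at 4N (limma-trend adjusted p = 2.10e-05) and -0.49 ± 0.06 at 2N (adjusted p = 4.30e-04).

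HSPE1 was 14.4, 14.7 and 15.2 RPKM in Anillin 4N, against 24.2, 20.7 and 21.4 RPKM in control 4N. Sorted 2N cells had 13.7, 12.6 and 11.9 RPKM in Anillin 2N, against 19.0, 13.4 and 17.4 RPKM in control 2N, where control 2N replicate 2 fell among the Anillin libraries. Its changes were -0.56 ± 0.11 at 4N (limma-trend adjusted p = 0.00209) and -0.36 ± 0.11 at 2N (adjusted p = 0.0400). HSPA9, the HSP70 of the matrix that pulls in imported proteins, was 8.03, 7.68 and 8.05 RPKM in Anillin 4N, against 13.0, 12.0 and 12.1 RPKM in control 4N. Among 2N cells HSPA9 was 8.39, 7.92 and 8.19 RPKM in Anillin 2N, against 10.4, 9.07 and 10.7 RPKM in control 2N. All 6 Anillin libraries lay below all 6 control libraries (-0.61 ± 0.06 at 4N, limma-trend adjusted p = 1.95e-05, and -0.28 ± 0.06 at 2N, adjusted p = 0.00659). The log2 ratio of HSPD1 to HSPE1 was -0.69 ± 0.01 (SD, n = 3) in Anillin 4N and -0.62 ± 0.05 in control 4N, a difference of -0.07 (exact permutation p = 0.1) that is close to the spread between control libraries.

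Small heat shock proteins, which hold unfolding proteins in soluble assemblies without ATP, were not lower in Anillin 4N cells. HSPB1 (HSP27) was 210, 223 and 236 RPKM in Anillin 4N, against 218, 189 and 221 RPKM in control 4N. With 2N content it was 219, 196 and 208 RPKM in Anillin 2N, against 204, 165 and 205 RPKM in control 2N. The groups overlapped at both DNA contents (0.09 ± 0.09 at 4N, limma-trend adjusted p = 0.444). HSPB8, which works with BAG3, and CRYAB, alpha-B crystallin, were not called at 4N either (0.06 ± 0.04 and 0.09 ± 0.05), though CRYAB was higher with quantile scaling (0.15, adjusted p = 0.0184). CRYAB was 1.84, 1.72 and 1.70 RPKM in Anillin 2N, against 1.47, 1.31 and 1.34 RPKM in control 2N, the only listed gene called higher at 2N (0.27 ± 0.05, limma-trend adjusted p = 0.00268). Its span overlaps HSPB2 on the other strand, and HSPB2 was also higher in Anillin 2N (0.33 ± 0.08).

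BAG3, a co-chaperone that steers HSP70 clients to autophagy and a common HSF1 target, was 4.70, 4.86 and 5.15 RPKM in Anillin 4N, against 5.91, 5.86 and 6.27 RPKM in control 4N. Among 2N cells it was 4.68, 4.80 and 4.79 RPKM in Anillin 2N, against 5.92, 5.56 and 6.29 RPKM in control 2N. The Anillin libraries were lower at both DNA contents by like amounts, -0.27 ± 0.05 at 4N (limma-trend adjusted p = 0.00111) and -0.29 ± 0.05 at 2N (adjusted p = 0.00207).

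Heat shock factors showed no called difference between the siRNAs. HSF1 was 2.95, 3.25 and 3.30 RPKM in Anillin 4N, against 3.06, 2.76 and 3.09 RPKM in control 4N. In the 2N fractions the level was 3.12, 2.88 and 2.79 RPKM in Anillin 2N, against 2.62, 2.28 and 2.70 RPKM in control 2N. The 4N groups overlapped, and the 2N groups did not (0.18 ± 0.07, limma-trend adjusted p = 0.0705). With quantile scaling HSF1 was called higher at 4N (0.19, adjusted p = 0.00936) and at 2N (0.22, adjusted p = 0.00853), and on recovered reads it was called higher at 2N (0.22, adjusted p = 0.0121). Its span overlaps DGAT1 on the other strand. HSF2, a second factor that can pair with HSF1, changed by -0.07 ± 0.04 at 4N and at 2N and was not called.

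At 2N both HSP90 genes, all 3 mitochondrial chaperones, 7 of 8 CCT subunits and 4 of 5 HSP90 co-chaperones were lower, against 2 of 7 in the HSP70 group and 1 of 6 J-domain proteins. In Anillin 2N against control 2N, 20 of the 37 genes were lower, 1 was higher and 16 were not called, while 17.1% of all genes were lower and 11.4% higher. The median change was -0.22 for the 37 genes and -0.02 for all genes. All 20 were also among the 27 lower at 4N, which is 74.1% of the 4N list and 100% of the 2N list. The matching overlap over all genes was not computed, so this share has no background beside it. The 2 comparisons share no library, but their calls come from the same fit with a residual spread shared by all 12 libraries. Across the 37 genes the changes at 4N and 2N had a Pearson r of 0.80 and a Spearman rho of 0.76, a description over genes, which are not independent replicates. The genes lower at 4N and not called at 2N were HSPA8, HSPA14, FKBP4, DNAJA1, DNAJA2, DNAJB1 and CCT3.

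The 2N calls were less secure. Without control 2N replicate 2, 25 genes were lower, with FKBP4, DNAJA1, DNAJA2, HSPB8 and CCT3 added, and with only the 2N groups fitted 12 were lower. STIP1, HSPE1, TCP1, CCT2, CCT5 and CCT7 lost their calls on leaving out any of control 2N replicates 1 and 3 and Anillin 2N replicate 2, with adjusted p reaching 0.133, 0.134, 0.111, 0.0760, 0.0734 and 0.0708 over the alternatives. STIP1 and TCP1 also lost theirs without Anillin 2N replicate 1, and the first 5 of these genes without Anillin 2N replicate 3.

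**Figure D5:**
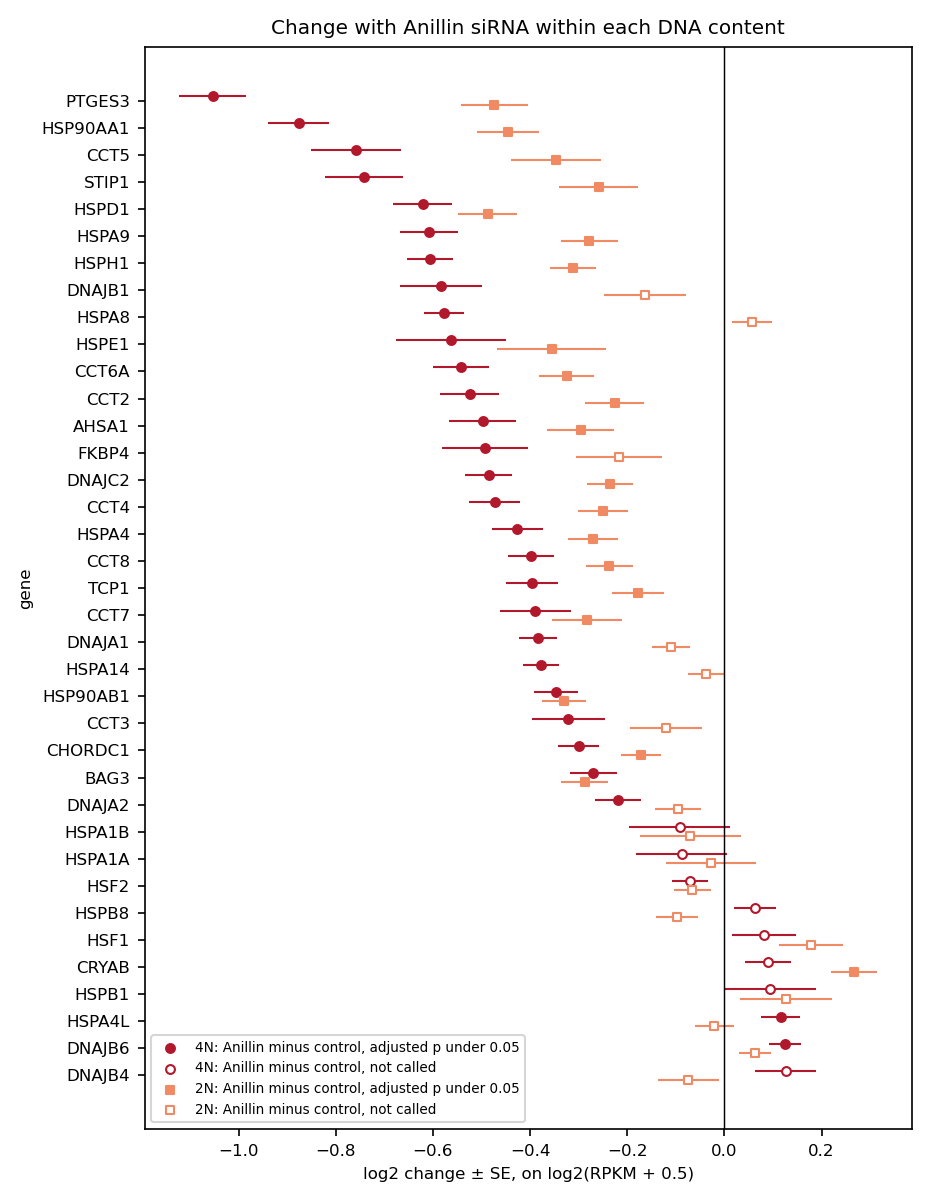
Log2 change with Anillin siRNA relative to control siRNA for each gene, with SE, at 4N (circles) and 2N (squares), on log2(RPKM + 0.5), filled where the adjusted p is under 0.05. Genes are ordered by the 4N change, PTGES3 (-1.05) at the top, and for 32 of the 37 the 4N change lies to the left of the 2N change. The matching share over all genes was not computed, and their median difference between the 4N and 2N changes was -0.04.

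The siRNA difference depended on DNA content for 11 of the 37 genes, all with a more negative change at 4N. Of all genes, 10.7% had a negative and 4.93% a positive interaction of siRNA and DNA content in limma-trend. The median interaction was -0.20 for the 37 genes and -0.04 for all genes. No listed gene had a positive interaction by limma-trend or by limma-voom on recovered reads, and 3 had one at an unadjusted p under 0.05. HSPA8 had the largest (-0.63 ± 0.06), followed by PTGES3 (-0.58 ± 0.10, limma-trend adjusted p = 0.00380), STIP1 (-0.48 ± 0.11, adjusted p = 0.0204) and HSP90AA1 (-0.43 ± 0.09, adjusted p = 0.0113). HSPA14, DNAJA1 and HSPH1 had interactions of -0.34 ± 0.05, -0.27 ± 0.06 and -0.30 ± 0.07, and that of HSPH1 lost its call with quantile scaling (-0.21, adjusted p = 0.0731).

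The number called ran between 6 and 12 when single libraries were left out, with 6 without control 4N replicate 1 and 7 without control 4N replicate 3, Anillin 4N replicate 2 or Anillin 2N replicate 1. HSPA8, HSPA14, HSP90AA1, PTGES3 and DNAJA1 kept a negative interaction under all 17 alternatives. STIP1 lost it without control 4N replicate 1 (adjusted p = 0.0588) or 3 (0.0520), and HSPA9 (-0.33 ± 0.08, adjusted p = 0.0256) without Anillin 4N replicate 2 (0.0640), control 4N replicate 1 (0.0732) or Anillin 2N replicate 1 (0.0601). DNAJB1 (-0.42 ± 0.12), DNAJC2 (-0.25 ± 0.07) and CCT2 (-0.30 ± 0.09) lost it in 9, 9 and 7 of the 12 fits that left out a library, with adjusted p up to 0.198, 0.0939 and 0.113 over all alternatives.

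Most chaperone genes were higher in control 4N than in control 2N cells, which also differ in G2/M sum, 246 to 282 RPKM against 29.1 to 43.5 RPKM. In control 4N against control 2N, 24 of the 37 genes were higher, 2 were lower and 11 were not called, while 23.9% of all genes were higher and 13.2% lower. The 24 include HSPA4L, which passed the filter through 4N libraries alone. The median change was 0.24 for the 37 genes and 0.05 for all genes. PTGES3 (0.69 ± 0.07, limma-trend adjusted p = 5.53e-05), STIP1 (0.58 ± 0.08, adjusted p = 4.58e-04), CCT5 (0.55 ± 0.09, adjusted p = 0.00152), HSP90AA1 (0.51 ± 0.06, adjusted p = 2.47e-04) and HSPA8 (0.51 ± 0.04, adjusted p = 1.18e-05) were higher by the most. DNAJB4 (-0.28 ± 0.06) and HSPB8 (-0.28 ± 0.04) were lower. HSP90AB1 (0.07 ± 0.05) and BAG3 (0.02 ± 0.05) were not called.

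Quantile scaling turned the balance of all genes in this comparison to 16.3% higher and 19.1% lower, and left 16 of the 37 genes higher and 3 lower. The calls of HSPA1A, FKBP4, DNAJB1, HSPE1 and HSF1 were each lost when single libraries were left out, without control 4N replicate 1 in all 5 cases (adjusted p = 0.0534, 0.108, 0.0782, 0.0700 and 0.130). Control 4N libraries serve in this comparison and in that with Anillin 4N, so a high value in them enters both.

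In Anillin 4N against Anillin 2N, HSPA4L was higher (0.36 ± 0.04, limma-trend adjusted p = 0.00108), with 0.554, 0.568 and 0.609 RPKM in Anillin 4N and 0.313, 0.359 and 0.349 RPKM in Anillin 2N. At its low level the pseudocount shrinks the change, which was 0.78 on recovered reads. The gene passed the filter through 4N libraries alone, so this call rests on a filter passed where it was high. HSPA4L was the only call among the 37 genes, 0 being lower by limma-trend and by limma-voom on recovered reads. At an unadjusted p under 0.05 the count was 3 higher and 2 lower. Of all genes 2.61% were higher and 0.97% lower, so few calls were made in this comparison at large. The median change was 0.04 for the 37 genes and 0.02 for all genes. PTGES3 differed by 0.11 ± 0.07, HSP90AA1 by 0.08 ± 0.06 and HSPA8 by -0.12 ± 0.04, none of them called. The G2/M sum of Anillin 4N, 36.4 to 39.5 RPKM, lay above that of Anillin 2N, 11.2 to 12.0 RPKM, and its part was not tested.

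In Anillin 4N against control 2N, 17 of the 37 genes were lower and 3 higher, while 15.8% of all genes were lower and 14.1% higher. The medians were -0.16 and -0.00. The largest falls were in HSP90AA1 (-0.37 ± 0.06, limma-trend adjusted p = 0.00207), HSPH1 (-0.37 ± 0.05, adjusted p = 3.81e-04), HSPD1 (-0.37 ± 0.06, adjusted p = 0.00155) and PTGES3 (-0.36 ± 0.07, adjusted p = 0.00371). HSPA4L (0.34 ± 0.04, or 0.74 on recovered reads), HSF1 (0.28 ± 0.07) and CRYAB (0.21 ± 0.05) were higher. The call of HSPA4L again rests on a filter passed through 4N libraries alone. HSPA8 was not called (-0.06 ± 0.04, adjusted p = 0.280). Leaving out single libraries gave between 12 and 24 lower genes, 24 without control 2N replicate 2, and AHSA1, DNAJA1, CCT2, CCT4 and CCT8 lost their calls in some of these fits. All 5 were lost without Anillin 4N replicate 1 (adjusted p = 0.112, 0.0601, 0.0849, 0.0891 and 0.0907) and without control 2N replicate 3. All but DNAJA1 were lost without Anillin 4N replicate 2 or control 2N replicate 1, and AHSA1 and CCT4 without Anillin 4N replicate 3. The control 2N libraries also serve in the 2N comparison of the siRNAs.

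The share of higher genes among all genes called moved with the scaling in 5 of the comparisons. It was 38.9% in Anillin 4N against control 4N (52.4% with quantile scaling), 40.0% in Anillin 2N against control 2N (50.7%), 72.9% in Anillin 4N against Anillin 2N (61.4%), 64.4% in control 4N against control 2N (46.0%) and 31.5% for the interaction (41.5%). The changes given for the 37 genes stand on the authors' scaling.

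Order of abundance was read per length of merged exon, as reads scaled to library size, since the deposited RPKM places long genes low. On this scale HSP90AB1 averaged 371 over the 12 libraries, HSPA8 249, HSP90AA1 241 and HSPB1 223, and PTGES3 followed at 84.7. HSPA4L (2.24), CHORDC1 (2.63) and DNAJC2 (3.41) were lowest, though the merged exons of HSPA4L and CHORDC1 are long, 11621 and 10655 bases, which places them low. The order of HSPA8 and HSP90AA1 on this scale differed between groups. HSPA8 stood at 223 ± 9.51 (SD, n = 3) and HSP90AA1 at 195 ± 3.36 in Anillin 4N, while in control 4N they stood at 310 ± 5.49 and 339 ± 20.1. Which of them is higher rests on merged exons of all annotated transcripts, 4849 bases for HSPA8 and 5248 for HSP90AA1. Other lengths could change that order, while the shift in their ratio between groups does not depend on length. In the authors' RPKM, HSP90AA1 lies far below HSPA8 because its annotated span is 58962 bases, against 5742 bases for HSPA8.

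Lower genes were found both with and without heat shock units in the promoter window. Of the 16 genes with a paired unit, 9 were lower in Anillin 4N against control 4N and 2 higher, with a median change of -0.32, and of the 16 with none, 15 were lower, with a median of -0.48. The 6 genes with a 3-unit match had a median of -0.46, with 5 lower and 1 higher. Of the 12 genes with CCAAT, 8 were lower (median -0.40), and of the 20 without, 16 (median -0.41). These counts are a description, and a window without the letters says nothing about binding elsewhere.

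Partner genes outside the 37 were followed in lists of their own. Of 9 measured genes of prefoldin and CCT partners, which hand new chains to CCT, 5 were lower and none higher with Anillin siRNA at 4N. The largest change was in TXNDC9, a CCT-binding thioredoxin-like protein (1.22 ± 0.05 RPKM in Anillin 4N and 1.91 ± 0.14 in control 4N, log2 change -0.48 ± 0.06). Of 21 further HSP70 and HSP90 co-chaperones, 12 were lower and 1 higher. TOMM34, which links both chaperones to mitochondrial import, stood at 2.12 ± 0.05 RPKM in Anillin 4N and 7.14 ± 0.40 in control 4N (-1.54 ± 0.08), and at 2.07 ± 0.17 in Anillin 2N and 5.03 ± 0.64 in control 2N (-1.10 ± 0.08). AHSA2P, a pseudogene related to AHSA1, was the gene that was higher at 4N (0.54 ± 0.08).

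Other J-domain genes numbered 13 measured, of which 5 were lower and 2 higher at 4N, and DNAJC9, a histone chaperone as well, was lower by 0.82 ± 0.05 on the log2 scale. Of 13 other mitochondrial chaperones and proteases, 8 were lower at 4N and none higher, led by GRPEL1, the exchange factor of HSPA9 (2.07 ± 0.10 RPKM in Anillin 4N and 3.22 ± 0.03 in control 4N, -0.53 ± 0.07). Proteasome subunits, which break down the proteins that chaperones cannot fold, were lower in 25 of 30 cases at 4N and 11 of 30 at 2N and higher in none, with PSMC3 lowest at 4N (-0.58 ± 0.09). For all genes the background at 4N stands above, 31.5% lower and 20% higher, and at 2N it was 17.1% lower and 11.4% higher.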

How the data were processed

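RNA-seq was made from 12 libraries in 4 groups of 3. The deposited values are RPKM, per the file headers, and they match whole reads divided by the annotated genomic span for 28 of the 37 genes. Whether the authors counted reads over introns is not known from this match. The submitters' processing notes name CASAVA 1.8.2, TopHat2, edgeR and hg19 with no role or order, and no source used here gives the counter, the annotation or the strand setting. The labels' protocols name both a stranded mRNA kit and depletion of ribosomal RNA. Spans, overlaps and exon lengths were taken from GENCODE 29 on GRCh38, and promoters from RefSeq on GRCh38.p14.

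Log2(RPKM + 0.5) was fitted with limma 3.58.1 (trend) in R 4.3.3, with 1 mean per group over all 12 libraries. Genes with at least 0.5 RPKM in at least 3 libraries were tested, p-values were adjusted by Benjamini-Hochberg over all of them and the threshold was 0.05. A pseudocount understates changes of low genes. Whole reads could be recovered for all 38571 genes above 0, within 0.01 of a read, and were fitted with limma-voom as an alternative, for genes reaching 10 reads in 3 or more libraries. Other alternatives were pseudocounts of 0.1 and 1, no filter, quantile scaling, a fit of the compared groups alone, and leaving out each library. Tables and figures were made in Python 3.11.15 with pandas 2.3.3, numpy 2.4.6 and matplotlib 3.10.9, and the fit was tested on simulated data.

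Values in every library are given for genes that changed by at least 0.5 on the log2 scale with an adjusted p under 0.05 in a pairwise comparison, or that had an interaction under 0.05, and for 13 leading genes of their families whatever their change. Values of HSPA4L, DNAJB6 and CRYAB in single libraries, and HSPB2, were added after their values were seen. Outside the 37, each list is represented by its largest change in each direction, and not every such gene is named. The 37 genes, the lists and these rules were chosen with earlier results of these data known.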

Additional observations from a re-analysis of the deposited data

Results flagged for a closer look

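The siRNA difference at 4N minus that at 2N passed the test in 11 of the 37 chaperone genes by limma-trend with Benjamini-Hochberg adjustment over all genes, each with the more negative change at 4N. It was -0.63 for HSPA8, -0.58 for PTGES3, -0.48 for STIP1, -0.43 for HSP90AA1 and -0.42 for DNAJB1 on the log2 scale. It was -0.34 for HSPA14, -0.33 for HSPA9, -0.30 for HSPH1, -0.30 for CCT2, -0.27 for DNAJA1 and -0.25 for DNAJC2. Of all genes tested, 10.7% had a negative and 4.93% a positive interaction. The call was kept under all 17 alternatives in 5 of the 11, HSPA8, HSPA14, HSP90AA1, PTGES3 and DNAJA1. In HSPA8, HSPA14 and DNAJB1 the siRNA groups overlapped at 2N, and in the other 8 they did not. The 10 G2/M genes had a negative interaction in 10 of 10 cases, with a median of -1.34, and their part in these differences was not tested.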

How the results depend on the processing

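No called change of the 37 genes turned its sign. Changes that were not called did so in some cases, among them HSPA1A (0.02) and HSPA1B (0.01) in Anillin 4N against control 4N with quantile scaling, and HSP90AB1 (to -0.02) and BAG3 (to -0.10) in control 4N against control 2N over the alternatives. The 27 lower genes of Anillin 4N against control 4N were 27 under every alternative. The 2 higher genes there became 1 with a pseudocount of 0.1 or only the 4N groups fitted, 4 with quantile scaling and 1 to 2 with a library left out. At 2N, 12 in place of 20 genes were lower with only the 2N groups fitted, and the 1 higher gene became 3 with quantile scaling and 2 on recovered reads. In Anillin 4N against control 2N, 5 in place of 3 were higher on recovered reads. The 11 negative interactions became 7 with no filter and 6 to 12 with a library left out. The causes were not tested. Of 264 changes of single genes, partner genes included, calls were lost in 15 with no filter, 10 with quantile scaling and 2 with a pseudocount of 0.1, and gained in 10 with quantile scaling and 18 on recovered reads. With only the compared groups fitted, which gives no interactions, 24 calls were lost. No paired analysis was possible because the numbers in the labels differ between the groups. Depth limits the low genes most, the fewest reads for a listed gene in a library being 301 for DNAJC2. With 3 libraries a group, exact tests of single ratios cannot go below 0.1. HSPA1A and HSPA1B cannot be separated with certainty, and genes that overlap another gene may carry its reads.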

Other observations

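Chaperones of the endoplasmic reticulum were mixed. Of 18 measured, 10 were lower and 3 higher with Anillin siRNA at 4N, where 31.5% of all genes were lower and 20% higher, and 8 were lower and 2 higher at 2N, where 17.1% were lower and 11.4% higher. HSP90B1, the HSP90 of this compartment, averaged 48.6 ± 1.39 RPKM (SD, n = 3) in Anillin 4N and 74.0 ± 1.74 in control 4N, and 49.0 ± 2.24 in Anillin 2N and 75.9 ± 2.82 in control 2N. Its log2 changes were -0.60 ± 0.04 (SE) and -0.62 ± 0.04, of like size at 4N and 2N. SERPINH1, a collagen chaperone, averaged 43.9 ± 2.55 RPKM in Anillin 4N and 30.5 ± 0.72 in control 4N, and 44.1 ± 2.94 in Anillin 2N and 33.9 ± 0.0853 in control 2N, with changes of 0.52 ± 0.05 and 0.37 ± 0.05. HSPA5 (BiP) was the only gene of this list to differ between Anillin 4N, 113.6 ± 1.11 RPKM, and Anillin 2N, 146.4 ± 1.94 RPKM (-0.36 on the log2 scale).

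Other heat shock family genes also ran both ways. Of 12 measured, 6 were lower and 4 higher with Anillin siRNA at 4N, and 2 were lower and 3 higher at 2N. Of all genes, 31.5% were lower and 20% higher at 4N, and 17.1% lower and 11.4% higher at 2N. The 2 lower genes at 2N are near that share. HSPA2, an HSP70 best known from the testis, averaged 0.988 ± 0.0717 RPKM in Anillin 4N and 2.19 ± 0.23 in control 4N (-0.85 ± 0.08). HSPB7, a small heat shock protein of heart muscle, averaged 5.17 ± 0.52 RPKM in Anillin 4N and 2.94 ± 0.30 in control 4N (0.72 ± 0.08). HSBP1, which binds heat shock factor 1, averaged 13.6 ± 0.41 RPKM in Anillin 2N and 10.1 ± 0.34 in control 2N (0.41 ± 0.05).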
